A study of Homo sapiens with 4 samples.

Results

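The genes described are 30 that code for enzymes and carriers of glycolysis, the pentose phosphate pathway and lactate handling, chosen by function, of 58740 genes in the table. They take 31 of its rows, because ALDOA stands on 2 rows that were summed. RNA was sequenced from spheroids, which are balls of cells grown without attachment, of 4 established human colon cell lines. The 3 cancer lines stand against 1 line from non-cancerous colon: HCT116 and DLD-1 from colorectal carcinomas, SW620 from a lymph node metastasis, and HCEC-1CT, which was immortalised with CDK4 and TERT. All 4 carry the genotype label WT and no label of a treatment, and they grew for 7 days in medium with 10% serum in low-attachment plates of 24 wells. Each line gave 1 library, from compact spheroids of 2 plates, so no spread between cultures is known, no test was possible, and every difference below is one between libraries. The labels state neither the glucose content of the medium nor the oxygen inside the spheroids.

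The labels call all 4 lines epithelial, and the markers go against this for HCEC-1CT. Summed over 7 epithelial markers, the level was 1601 FPKM in HCT116, 5420 FPKM in DLD-1 and 6799 FPKM in SW620, against 7.29 FPKM in HCEC-1CT, where EPCAM, CDH1, KRT19 and DSP are listed at 0. FPKM counts fragments relative to transcript length and library size, so it also allows levels of different genes to be set side by side. Summed over 8 fibroblast markers, the level was 12.7 FPKM in HCT116, 1.46 FPKM in DLD-1 and 27.9 FPKM in SW620, against 1081 FPKM in HCEC-1CT. The low values match about 25300000 fragments for HCT116, 23300000 for DLD-1 and 28700000 for SW620, against 29500000 in HCEC-1CT. The mitochondrial genome took 10.6% of summed FPKM in HCT116, 3.42% in DLD-1, 3.91% in SW620 and 1.79% in HCEC-1CT. The part of cell identity and of this makeup in the differences below was not tested, and in bulk RNA fewer cells of a kind and less RNA per cell cannot be told apart.

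Glycolysis splits glucose into pyruvate, with ATP and NADH as yield, and lactate dehydrogenase then turns pyruvate into lactate, which leaves the cell with a proton. The pentose phosphate pathway branches off glucose-6-phosphate and provides NADPH and ribose for nucleotides. Many tumours, those of the colon among them, take up much glucose and release lactate even with oxygen present, and hypoxia and MYC are known to raise the transcription of many of these genes.

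Taken as a sum, the 30 genes held 6141 FPKM in HCT116, 8150 FPKM in DLD-1 and 8749 FPKM in SW620, against 4541 FPKM in HCEC-1CT. This was 2.02% of the FPKM of nuclear protein-coding genes in HCT116, 2.76% in DLD-1, 2.83% in SW620 and 1.62% in HCEC-1CT. The sum was therefore higher in DLD-1 and SW620 by either measure. For HCT116 the direction depends on the scale, since the 30 genes took 1.08% of all FPKM there and 1.10% in HCEC-1CT. GAPDH had the highest level of the 30 genes in every library when all transcripts were summed. Over protein-coding transcripts alone, ALDOA was above GAPDH in HCT116, at 1160 against 851 FPKM. In SW620 ALDOA (1125 FPKM), SLC2A1 (1098 FPKM) and ENO1 (883 FPKM) were then above GAPDH (707 FPKM). All 30 genes reached 1 FPKM in 1 or more libraries, the minimum for counting a gene as measured. Of their 120 values, those under 1 FPKM were SLC2A3 in DLD-1 and PDK3 in HCEC-1CT.

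Ratios are log2 ratios of FPKM plus 1, and a gene was called higher or lower at a 2-fold difference. In HCT116, 7 of the 30 genes were higher than in HCEC-1CT and 2 lower, against 26.9% and 13.1% of 18636 measured genes. In DLD-1 13 were higher and 2 lower, against 25.9% and 12.9% of measured genes. In SW620 13 were higher and 1 lower, against 24.8% and 14.2%. As shares of the 30 genes, those called higher were 23.3% for HCT116, 43.3% for DLD-1 and 43.3% for SW620. As deposited, the share in HCT116 was thus near that of all genes, and those in DLD-1 and SW620 were above it. All 3 comparisons share the HCEC-1CT library. Among 9452 genes with at least 10 FPKM in a library, whose levels are more like those of these enzymes, 31.2% were higher and 13.5% lower in HCT116, 29.2% and 13.5% in DLD-1, and 30.4% and 14.2% in SW620. At a 4-fold limit SLC2A1, ALDOC and PDK3 were called higher in each line. PFKFB4 was then lower in HCT116, SLC2A3 in DLD-1 and PFKFB4 in SW620. This made 3 genes higher and 1 lower in HCT116, against 9.04% and 5.01% of measured genes. The counts were the same in DLD-1, against 9.24% and 5.58%, and in SW620, against 8.93% and 5.49%.

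The median log2 ratio of the 30 genes was 0.01 for HCT116, 0.66 for DLD-1 and 0.70 for SW620, beside 0.27, 0.33 and 0.21 over all measured genes in that order of lines. The deposited values thus put the typical gene somewhat higher in each cancer library than in HCEC-1CT. Libraries were also rescaled by the median ratio, which removes most of that shift. In HCT116, 5 genes were then called higher and 4 lower, against 20.6% and 18.5% of measured genes. In DLD-1 it was 8 higher and 3 lower, against 19.4% and 17.1%. In SW620 it was 6 higher and 2 lower, against 20.6% and 18.2%. The 8 genes in DLD-1 were 26.7% of the 30 and still above the share of all genes, while 6 of 30 in SW620 was no longer above it. Many calls near 2-fold depend on this choice, as given for single genes below. The calls of SLC2A1, SLC2A3, GPI, ALDOC, PFKFB4 and PDK3 held under each of 3 other scalings.

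**Figure D1:**
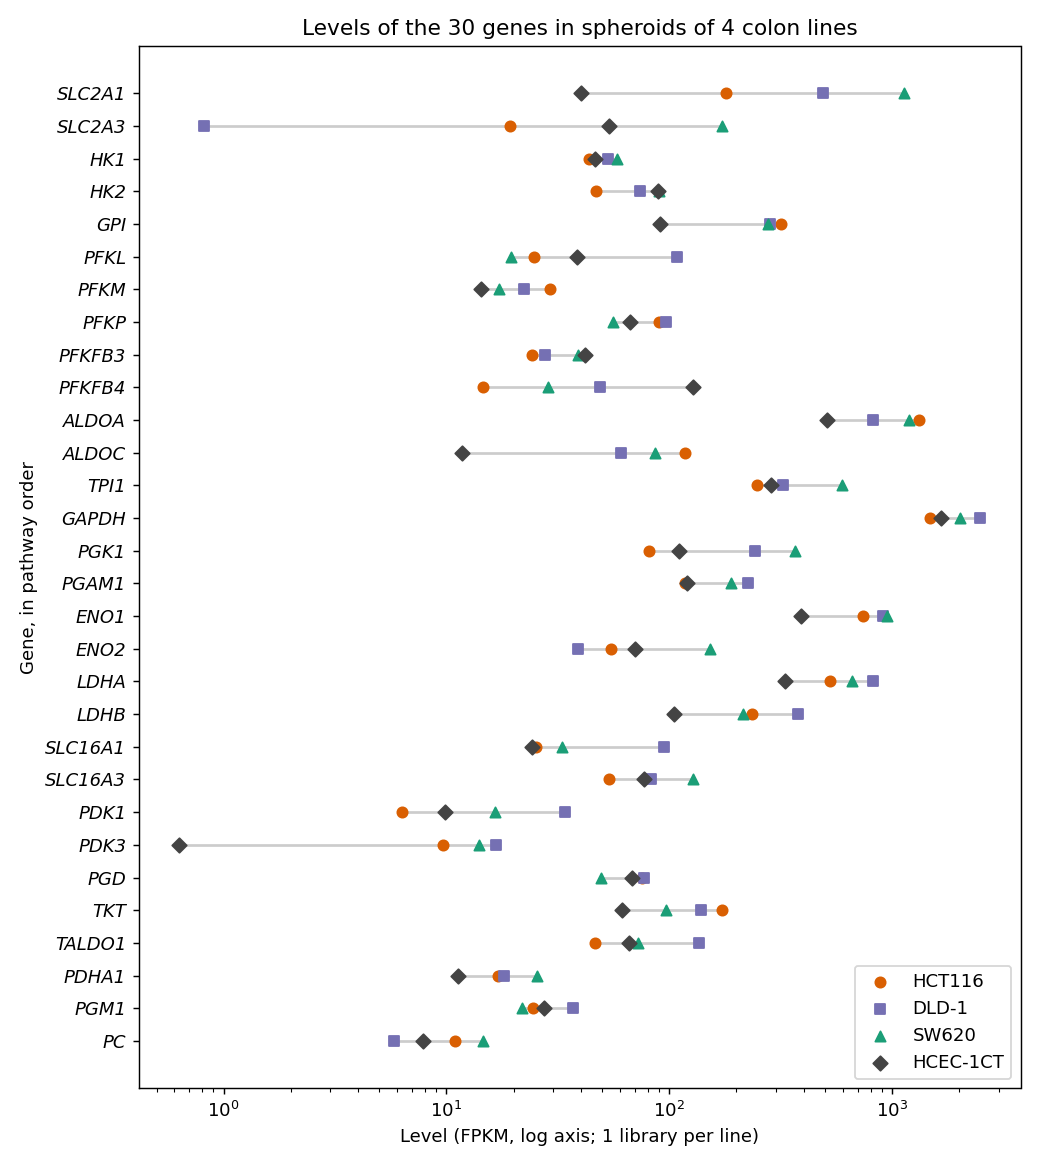
Level of each of the 30 genes in FPKM (log axis) in the HCT116, DLD-1, SW620 and HCEC-1CT libraries, with 1 point per library and the genes ordered by pathway step. The points of most enzymes lie close together, while SLC2A1, SLC2A3 and PDK3 spread widely, SLC2A3 between 0.819 FPKM in DLD-1 and 172.9 FPKM in SW620.

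Glucose enters through facilitative carriers, and the gene of the 30 with the widest spread between libraries, SLC2A3, belongs to this step. SLC2A1, the gene of GLUT1, lies on the minus strand of chromosome 1 at 42925375 to 42959176 (hg38). It had 179 FPKM in HCT116, 489 FPKM in DLD-1 and 1129 FPKM in SW620, against 39.95 FPKM in HCEC-1CT. The log2 ratio was 2.14 for HCT116, 3.58 for DLD-1 and 4.79 for SW620, and each cancer line was also more than 2-fold from the next. In SW620 this was the widest of the 90 ratios to HCEC-1CT on the higher side, while the HCT116 ratio was 1.76 under median-ratio rescaling and so under 4-fold.

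SLC2A3, the gene of the high-affinity carrier GLUT3, behaved otherwise. It had 19.35 FPKM in HCT116, 0.819 FPKM in DLD-1 and 172.9 FPKM in SW620, against 53.8 FPKM in HCEC-1CT. The log2 ratio was -1.43 for HCT116, -4.91 for DLD-1 and 1.67 for SW620, so both directions occur among the cancer lines. The DLD-1 value stands on about 58 fragments, with an exact Poisson 95% interval of 44.04 to 74.98 that covers counting error only. Pseudogene copies of SLC2A3 held 0.172 FPKM in DLD-1, or 21.0% of its level there. The interval does not cover how reads were divided between them. Of the summed FPKM of both carriers, SLC2A1 held 90.3% in HCT116, 99.8% in DLD-1, 86.7% in SW620 and 42.6% in HCEC-1CT, the one library where SLC2A3 led.

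Hexokinases phosphorylate glucose and so hold it in the cell, and neither gene reached 2-fold in any cancer line. HK1, found in most tissues, had 43.5 FPKM in HCT116, 52.8 FPKM in DLD-1 and 58.2 FPKM in SW620, against 46.3 FPKM in HCEC-1CT. HK2, the form linked to tumours and hypoxia, had 46.7 FPKM in HCT116, 73.6 FPKM in DLD-1 and 89.4 FPKM in SW620, against 88.9 FPKM in HCEC-1CT. HK2 was thus the leading hexokinase in every library, and its log2 ratio of -0.91 in HCT116 was below -1 under each other scaling. HKDC1, a further hexokinase family member, had 1.24 FPKM in HCT116, 0.0116 FPKM in DLD-1 and 13.2 FPKM in SW620, against a value listed as 0 in HCEC-1CT.

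GPI, which interconverts glucose-6-phosphate and fructose-6-phosphate, lies on the plus strand of chromosome 19 at 34359480 to 34402413. Its level was 316.5 FPKM in HCT116, 283 FPKM in DLD-1 and 276 FPKM in SW620, against 90.3 FPKM in HCEC-1CT. With log2 ratios of 1.80, 1.64 and 1.60 in that order of cancer lines, the 3 cancer libraries lay close together and apart from HCEC-1CT. Their transcripts differed all the same. GPI-208 made up 74.9% of the gene's FPKM in HCT116, 75.3% in DLD-1, 0.647% in SW620 and 43.0% in HCEC-1CT. GPI-202 made up 3.88% in HCT116, 0.212% in DLD-1, 63.8% in SW620 and 47.5% in HCEC-1CT. The HCEC-1CT library thus held both protein-coding forms in near-equal parts, and each cancer library mostly 1 of them.

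Phosphofructokinase commits the sugar to glycolysis and has 3 subunit genes, of which only PFKL was called. PFKL, the liver type, had 24.8 FPKM in HCT116, 108 FPKM in DLD-1 and 19.5 FPKM in SW620, against 38.7 FPKM in HCEC-1CT. Its log2 ratio was -0.62 for HCT116, 1.46 for DLD-1 and -0.95 for SW620, and that of DLD-1 over SW620 was 2.42. Under median-ratio rescaling the SW620 value was -1.24, so PFKL is then called lower in SW620, as it also is in HCT116 on the TPM scale. PFKM, the muscle type, had 29.3 FPKM in HCT116, 22.2 FPKM in DLD-1 and 17.2 FPKM in SW620, against 14.3 FPKM in HCEC-1CT. Its log2 ratio in HCT116 was 0.99, just under a call, and 0.04 when protein-coding transcripts alone were summed.

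PFKP, the platelet type, had 89.8 FPKM in HCT116, 96.5 FPKM in DLD-1 and 56.1 FPKM in SW620, against 66.6 FPKM in HCEC-1CT. PFKP was the leading subunit in HCT116, SW620 and HCEC-1CT, while in DLD-1 PFKL held 47.7% and PFKP 42.5%. The lead of PFKL in DLD-1 is lost when protein-coding transcripts alone are summed, where its share is 25.2%. PFKM overlaps SENP1 on the other strand, and without knowing whether the libraries kept strand, reads of such pairs cannot be told apart.

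The PFKFB enzymes make and break fructose 2,6-bisphosphate, the strongest activator of phosphofructokinase. PFKFB4, on the minus strand of chromosome 3 at 48517684 to 48562015, had 14.6 FPKM in HCT116, 48.7 FPKM in DLD-1 and 28.5 FPKM in SW620, against 127 FPKM in HCEC-1CT. The log2 ratio was -3.04 for HCT116, -1.37 for DLD-1 and -2.12 for SW620, the one gene of the 30 called lower in each comparison. UCN2, which overlaps it on the same strand, had 0.619 FPKM in HCT116, 0.130 FPKM in DLD-1 and 0.649 FPKM in SW620, against 116.8 FPKM in HCEC-1CT. Counting the 13 PFKFB4 transcripts that do not overlap UCN2, the log2 ratio was -2.61 for HCT116, -0.91 for DLD-1 and -1.69 for SW620. The DLD-1 call is therefore lost without the overlapping transcripts, a choice made after seeing the data.

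PFKFB3, the form with high kinase activity, had 24.2 FPKM in HCT116, 27.8 FPKM in DLD-1 and 38.95 FPKM in SW620, against 41.9 FPKM in HCEC-1CT. No cancer line was 2-fold from HCEC-1CT as deposited, HCT116 was at -1.14 on the log2 scale under median-ratio rescaling, and PFKFB3 was the more abundant of both genes in HCT116 (62.4%) and SW620 (57.7%). PFKFB2, the heart form, had 8.26 FPKM in HCT116, 5.06 FPKM in DLD-1 and 10.8 FPKM in SW620, against 0.335 FPKM in HCEC-1CT. It was thus more than 4-fold higher in each cancer library at a low level.

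The transcripts of PFKFB3 begin at starts far apart on chromosome 10, and these were singled out after their values were seen. PFKFB3-205, from the upstream start, made up 16.2% of the gene's FPKM in HCT116, 32.1% in DLD-1, 36.6% in SW620 and 9.77% in HCEC-1CT. PFKFB3-219, from the downstream start, made up 64.7% in HCT116, 54.4% in DLD-1, 49.6% in SW620 and 70.6% in HCEC-1CT. PFKFB3-219 was the larger of both in every library. The RefSeq windows of 300 bases at both starts (GRCh38.p14, plus strand, chr10:6144671-6144970 and chr10:6202682-6202981) are shown because they are the DNA from which these forms begin, with any ACGTG or its reverse complement CACGT in capitals. ACGTG is a form of the core of the element that hypoxia-inducible factors bind, and a match is only a run of letters. The other form, GCGTG, was not searched, so a window without a match may still hold a core.
PFKFB3 upstream start: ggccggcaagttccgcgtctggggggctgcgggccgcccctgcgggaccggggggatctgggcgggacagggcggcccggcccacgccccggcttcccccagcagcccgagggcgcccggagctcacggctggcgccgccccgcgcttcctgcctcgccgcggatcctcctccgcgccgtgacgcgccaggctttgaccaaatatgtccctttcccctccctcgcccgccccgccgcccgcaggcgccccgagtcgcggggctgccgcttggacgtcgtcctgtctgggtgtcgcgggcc
PFKFB3 downstream start: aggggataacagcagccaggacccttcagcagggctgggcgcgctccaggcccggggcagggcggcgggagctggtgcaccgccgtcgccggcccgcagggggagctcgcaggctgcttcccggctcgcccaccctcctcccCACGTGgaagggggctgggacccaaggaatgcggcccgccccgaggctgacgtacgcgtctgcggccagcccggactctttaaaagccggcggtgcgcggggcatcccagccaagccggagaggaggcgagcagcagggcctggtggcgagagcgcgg

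The upstream window holds 0 matches and the downstream window 2. Over all 35116 RefSeq promoter windows of this length, 21.4% hold the motif on either strand and 1.98% hold it 3 or more times. Of the 58 windows of the genes described, which cover 28 of the 30 genes, 22 hold it (37.9%) and 4 hold it 3 or more times (6.90%). Those 4 belong to LDHA with 5 matches, HK2 with 4, and ALDOC and PGK1 with 3 each, where the palindrome CACGTG counts as 2.

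Aldolase splits the 6-carbon sugar into both triose phosphates. ALDOA, the muscle form and the main aldolase in all 4 libraries, had 1315 FPKM in HCT116, 823 FPKM in DLD-1 and 1186 FPKM in SW620, against 509 FPKM in HCEC-1CT. Its log2 ratio was 1.37 for HCT116, 0.69 for DLD-1 and 1.22 for SW620. The HCT116 and SW620 calls are lost under median-ratio rescaling and on the TPM scale. The antisense gene AC093512.1 overlaps ALDOA and reached at most 10.9% of its level.

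The antisense gene AC005726.4 overlaps ALDOC, the brain form, and reached at most 12.65% of its level. ALDOC lies on the minus strand of chromosome 17 at 28573115 to 28577264. It had 117.5 FPKM in HCT116, 60.7 FPKM in DLD-1 and 86.6 FPKM in SW620, against 11.75 FPKM in HCEC-1CT. The log2 ratio was 3.22 for HCT116, 2.27 for DLD-1 and 2.78 for SW620, and ALDOC was 4-fold higher in each cancer library, though under median-ratio rescaling the DLD-1 ratio was 1.89. It stayed a minor aldolase, with 8.20% of both genes in HCT116, 6.86% in DLD-1, 6.81% in SW620 and 2.26% in HCEC-1CT. Its RefSeq window (chr17:28576846-28577145, minus strand) is shown because the gene was 4-fold apart in each comparison and the window holds 3 matches to ACGTG on either strand. SLC2A1 and PDK3 were also 4-fold higher in each cancer library, and their windows hold 0 matches and 1 match. A link between the motif and the levels was not tested.
ALDOC start: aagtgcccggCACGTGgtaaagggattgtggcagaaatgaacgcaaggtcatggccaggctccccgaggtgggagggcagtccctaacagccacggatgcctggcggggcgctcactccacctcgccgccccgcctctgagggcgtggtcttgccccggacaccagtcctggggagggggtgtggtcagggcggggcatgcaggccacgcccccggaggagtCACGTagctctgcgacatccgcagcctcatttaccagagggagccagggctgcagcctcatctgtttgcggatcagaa

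TPI1, which interconverts the triose phosphates, had 246 FPKM in HCT116, 323 FPKM in DLD-1 and 593 FPKM in SW620, against 285 FPKM in HCEC-1CT. GAPDH, the NADH-forming step, had 1477 FPKM in HCT116, 2486 FPKM in DLD-1 and 2003 FPKM in SW620, against 1649 FPKM in HCEC-1CT. GAPDH was within 2-fold everywhere, its pseudogene copies together held at most 1.02% of its level, and TPI1 reached a log2 ratio of 1.06 in SW620 alone, which is lost under median-ratio rescaling. The transcripts of GAPDH also differed between libraries. The retained-intron transcript GAPDH-208 made up 41.6% in HCT116, 34.6% in DLD-1, 64.0% in SW620 and 31.1% in HCEC-1CT. The protein-coding GAPDH-201 made up 50.3% in HCT116, 57.0% in DLD-1, 31.5% in SW620 and 61.9% in HCEC-1CT, so SW620 was the one library where it did not lead. Summed over protein-coding transcripts alone, the GAPDH log2 ratio was -0.40 for HCT116, 0.51 for DLD-1 and -0.67 for SW620. The SW620 value thus changed sign from 0.28 as deposited.

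PGK1, the first ATP-yielding step, lies on chromosome X at 77910739 to 78129296. It had 80.65 FPKM in HCT116, 243 FPKM in DLD-1 and 364 FPKM in SW620, against 110.4 FPKM in HCEC-1CT. The log2 ratio was -0.45 for HCT116, 1.13 for DLD-1 and 1.71 for SW620, and that of HCT116 over SW620 was -2.16. HCT116 thus had the lowest PGK1 of the 4 libraries, and the DLD-1 call is lost under median-ratio rescaling. PGAM1, the mutase that follows, had 117 FPKM in HCT116, 225.5 FPKM in DLD-1 and 189.8 FPKM in SW620, against 120.5 FPKM in HCEC-1CT.

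ENO1, the main enolase, had 741 FPKM in HCT116, 908 FPKM in DLD-1 and 942 FPKM in SW620, against 390.3 FPKM in HCEC-1CT. Its log2 ratio was 0.92 for HCT116, 1.22 for DLD-1 and 1.27 for SW620, and both calls are lost under median-ratio rescaling. In HCT116 62.8% of this was ENO1-203, a transcript with a retained intron, which made up 1.24% in DLD-1 and 4.45% in SW620, against 9.21% in HCEC-1CT. Summed over protein-coding transcripts alone, the log2 ratio of ENO1 was -0.55 for HCT116, 1.34 for DLD-1 and 1.36 for SW620. HCT116 therefore had more ENO1 RNA than HCEC-1CT and less of its coding form, at ratios under 2-fold in both directions.

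ENO2, the neuronal enolase, had 54.4 FPKM in HCT116, 39.1 FPKM in DLD-1 and 152 FPKM in SW620, against 70.4 FPKM in HCEC-1CT. ENO3, the muscle enolase, had 41.9 FPKM in HCT116, 26.1 FPKM in DLD-1 and 122.7 FPKM in SW620, against 9.80 FPKM in HCEC-1CT. SW620 was highest for both, with log2 ratios of 1.10 for ENO2, a call lost under each other scaling, and 3.52 for ENO3. In DLD-1 the ENO2 ratio was -0.83 as deposited and -1.24 under median-ratio rescaling, where it is called lower. LRRC23 overlaps ENO2 on the same strand and reached at most 15.5% of its level. PKM, which makes pyruvate and was singled out after its values were seen, had 669 FPKM in HCT116, 938 FPKM in DLD-1 and 1103 FPKM in SW620, against 496 FPKM in HCEC-1CT.

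**Figure D2:**
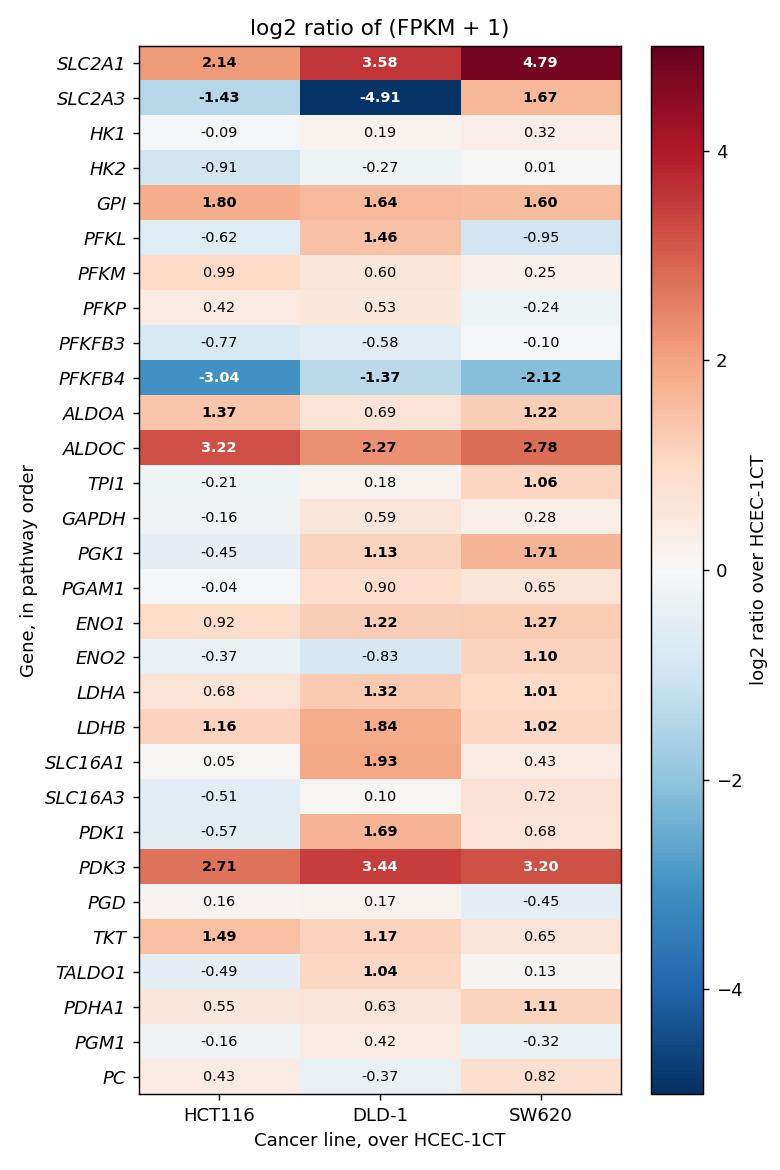
Log2 ratio of FPKM plus 1 of each cancer line over HCEC-1CT for the 30 genes, 1 column per cancer line, with rows in pathway order and colour for direction. SLC2A1, GPI, ALDOC, LDHB and PDK3 are above 1 in each column and PFKFB4 is below -1 in each column, while SLC2A3 changes sign between columns.

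Lactate dehydrogenase is a tetramer of A and B subunits, and both genes were higher in the cancer libraries by modest ratios. LDHA, the subunit that favours lactate formation, had 526 FPKM in HCT116, 823 FPKM in DLD-1 and 663 FPKM in SW620, against 329 FPKM in HCEC-1CT. This gave log2 ratios of 0.68 for HCT116, 1.32 for DLD-1 and 1.01 for SW620. LDHB, the subunit that favours pyruvate formation, had 236 FPKM in HCT116, 377.5 FPKM in DLD-1 and 214 FPKM in SW620, against 105 FPKM in HCEC-1CT. Its log2 ratio was 1.16 for HCT116, 1.84 for DLD-1 and 1.02 for SW620.

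LDHA over LDHB was 2.23 in HCT116, 2.18 in DLD-1, 3.10 in SW620 and 3.14 in HCEC-1CT, as a ratio of FPKM. The ratio was thus lower in HCT116 and DLD-1, and about equal in SW620 and HCEC-1CT. Over protein-coding transcripts alone it was 0.669 in HCT116, 0.734 in DLD-1 and, turning the order, 1.67 in SW620, against 1.08 in HCEC-1CT. LDHB lost its call in HCT116 and SW620, and LDHA in DLD-1 and SW620, under median-ratio rescaling. Summed over protein-coding transcripts alone, LDHA held 40.1% of both subunits in HCT116 and 42.3% in DLD-1, so its lead depends on transcripts with other labels. Of the 2 LDHA windows, the upstream one (chr11:18394313-18394612, plus strand) held 5 matches to ACGTG, the most of the windows searched for these genes, and is shown for that. Its start lies 1715 bases from that of the protein-coding LDHA-203, and the other window held 0.
LDHA upstream start: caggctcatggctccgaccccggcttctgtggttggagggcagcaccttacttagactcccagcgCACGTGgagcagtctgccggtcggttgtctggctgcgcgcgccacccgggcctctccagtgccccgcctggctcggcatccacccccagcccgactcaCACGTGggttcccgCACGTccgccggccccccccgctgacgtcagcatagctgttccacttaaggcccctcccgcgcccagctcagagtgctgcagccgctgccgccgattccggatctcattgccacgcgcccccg

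Monocarboxylate carriers move lactate across the membrane, and DLD-1 stood apart. SLC16A1, the gene of MCT1, had 25.1 FPKM in HCT116, 94.6 FPKM in DLD-1 and 32.8 FPKM in SW620, against 24.15 FPKM in HCEC-1CT. SLC16A3, the gene of the hypoxia-linked exporter MCT4, had 53.7 FPKM in HCT116, 82.3 FPKM in DLD-1 and 127 FPKM in SW620, against 76.9 FPKM in HCEC-1CT. The log2 ratio of SLC16A1 was 1.93 in DLD-1, and it held 53.5% of both carriers there, whereas SLC16A3 led in HCT116, SW620 and HCEC-1CT.

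SLC16A3 was within 2-fold of HCEC-1CT in each cancer line, and its reads are less certain because CSNK1D overlaps it on the other strand. Its transcript SLC16A3-214 made up 22.1% in HCT116, 64.3% in DLD-1, 9.94% in SW620 and 38.7% in HCEC-1CT. SLC16A7, the gene of MCT2, had 1.19 FPKM in HCT116, a value listed as 0 in DLD-1 and 0.0839 FPKM in SW620, against 20.7 FPKM in HCEC-1CT. It was thus at 1.19 FPKM or less in the cancer libraries and held 17.0% of the carriers in HCEC-1CT.

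**Figure D3:**
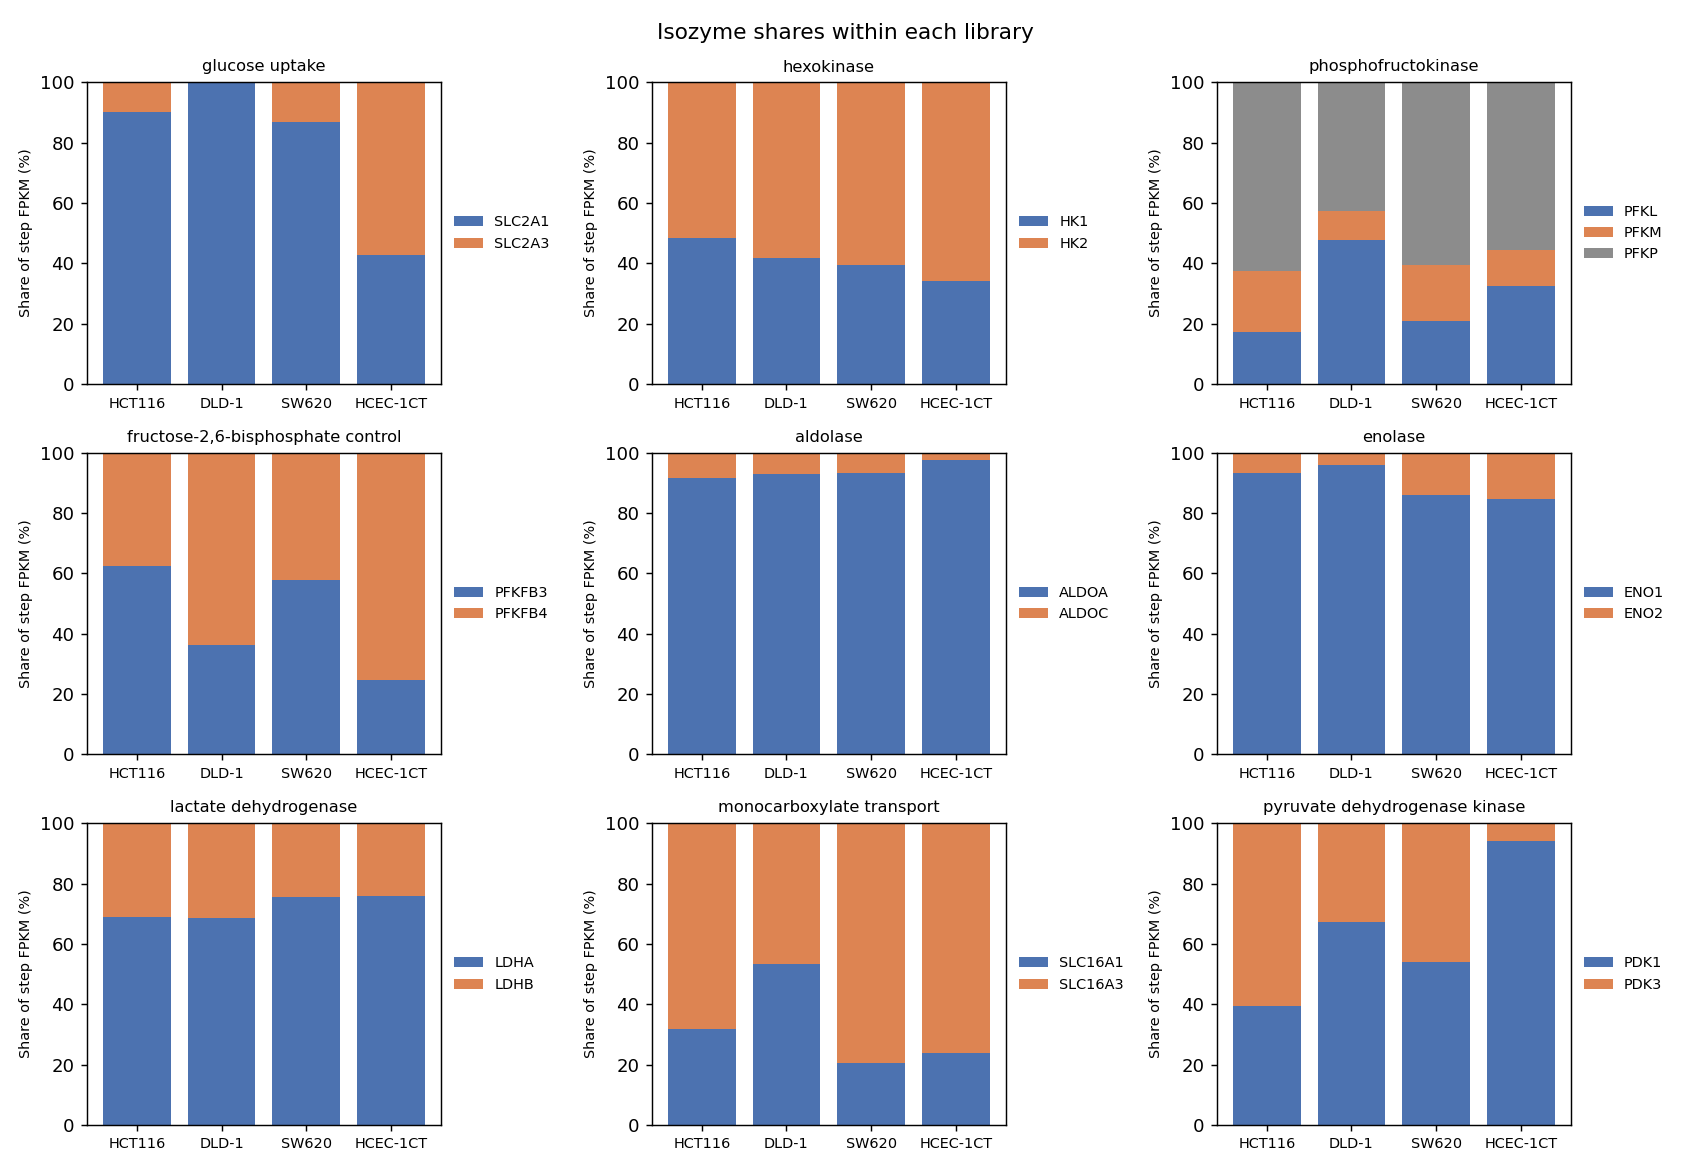
Share of the summed FPKM of a step (percent) held by each of its isozyme genes among the 30, in the HCT116, DLD-1, SW620 and HCEC-1CT libraries, 1 panel per step. SLC2A1 fills 86.7% to 99.8% of its bar in the cancer libraries and 42.6% in HCEC-1CT, and PDK3 fills 32.8% to 60.5% in the cancer libraries and 6.002% in HCEC-1CT.

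Pyruvate dehydrogenase acts on pyruvate inside mitochondria, and the PDK kinases switch it off. PDK3, on the plus strand of chromosome X at 24465221 to 24539837, had 9.67 FPKM in HCT116, 16.7 FPKM in DLD-1 and 14.0 FPKM in SW620, against 0.630 FPKM in HCEC-1CT. The log2 ratio was 2.71 for HCT116, 3.44 for DLD-1 and 3.20 for SW620. The HCEC-1CT value stands on about 28 fragments, with an exact Poisson 95% interval of 18.61 to 40.47, so it was low but detected. PDK3-202 made up 46.3% of the gene in HCT116, 84.3% in DLD-1, 62.6% in SW620 and 29.3% in HCEC-1CT at that low depth.

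PDK1, the hypoxia-linked kinase, which the antisense gene AC078883.1 overlaps, had 6.31 FPKM in HCT116, 34.1 FPKM in DLD-1 and 16.4 FPKM in SW620, against 9.87 FPKM in HCEC-1CT. That is a log2 ratio of -0.57 for HCT116, 1.69 for DLD-1 and 0.68 for SW620. PDK4, the starvation-linked kinase, had 3.29 FPKM in HCT116, 1.39 FPKM in DLD-1 and 1.86 FPKM in SW620, against 18.9 FPKM in HCEC-1CT. With all PDK genes counted, PDK4 was the leading kinase in HCEC-1CT with 55.9%, and PDK1 in DLD-1 with 63.7%. In HCT116 PDK3 held 33.5% and PDK1 21.9%, while PDK2, singled out after its values were seen, held 33.3%. PDK3 and PDK2 were thus about equal there.

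PDHA1, the catalytic subunit that these kinases phosphorylate, had 17.0 FPKM in HCT116, 18.1 FPKM in DLD-1 and 25.4 FPKM in SW620, against 11.3 FPKM in HCEC-1CT. PDK3 over PDHA1 was 0.57 in HCT116, 0.923 in DLD-1, 0.55 in SW620 and 0.0558 in HCEC-1CT. The level of PDK3 per unit of its target gene was thus lowest in HCEC-1CT, and the PDHA1 log2 ratio of 1.11 in SW620 is lost under median-ratio rescaling. MAP3K15 overlaps PDHA1 on the other strand and reached at most 20.2% of its level. Of 8 further genes of pyruvate entry and pyruvate dehydrogenase, 2 were called higher for HCT116, 3 for DLD-1 and 3 for SW620. In each line 0 of them were called lower. Of all measured genes 26.9% were called higher for HCT116, 25.9% for DLD-1 and 24.8% for SW620.

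PC, pyruvate carboxylase, feeds pyruvate into oxaloacetate. It had 10.9 FPKM in HCT116, 5.84 FPKM in DLD-1 and 14.6 FPKM in SW620, against 7.85 FPKM in HCEC-1CT, within 2-fold in each comparison. LRFN4, which overlaps it on the other strand, reached 183.9% of the PC level in DLD-1, so PC is uncertain. Summed over protein-coding transcripts alone, its log2 ratio was 1.30 in SW620 and there above 2-fold. SW620 differed in the start: PC-201 made up 50.4% there and is listed at 0 in HCT116 and DLD-1, as it is in HCEC-1CT. PC-202, from the upstream start, made up 32.5% in HCT116, 27.4% in DLD-1, 8.20% in SW620 and 37.7% in HCEC-1CT. The windows nearest to these starts (minus strand, chr11:66907904-66908203 and chr11:66958334-66958633) are shown for this difference, with ACGTG matches in capitals. Their RefSeq starts lie 52 bases from that of PC-201, which falls just outside its window, and 7 bases from that of PC-202. A further PC window, not shown, held 0 matches.
PC downstream start: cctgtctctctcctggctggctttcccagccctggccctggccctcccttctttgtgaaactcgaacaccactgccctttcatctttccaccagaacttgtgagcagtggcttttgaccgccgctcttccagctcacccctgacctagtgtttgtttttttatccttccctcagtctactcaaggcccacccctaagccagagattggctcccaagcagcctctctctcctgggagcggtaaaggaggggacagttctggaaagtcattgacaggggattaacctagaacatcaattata
PC upstream start: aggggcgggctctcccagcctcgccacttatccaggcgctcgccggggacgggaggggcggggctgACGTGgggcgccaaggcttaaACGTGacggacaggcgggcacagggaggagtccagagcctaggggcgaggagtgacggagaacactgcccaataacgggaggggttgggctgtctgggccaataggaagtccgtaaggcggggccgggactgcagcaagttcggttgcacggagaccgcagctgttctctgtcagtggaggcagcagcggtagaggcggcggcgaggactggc

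In the pentose phosphate pathway TKT was called higher in HCT116 and DLD-1, TALDO1 in DLD-1, and PGD in no cancer line. PGD, the second NADPH-forming step, had 75.65 FPKM in HCT116, 76.6 FPKM in DLD-1 and 49.2 FPKM in SW620, against 67.8 FPKM in HCEC-1CT. TKT, transketolase, which links pentoses back to glycolysis, had 172.9 FPKM in HCT116, 138 FPKM in DLD-1 and 96.2 FPKM in SW620, against 61.1 FPKM in HCEC-1CT. TALDO1, transaldolase, had 46.5 FPKM in HCT116, 136 FPKM in DLD-1 and 71.99 FPKM in SW620, against 65.7 FPKM in HCEC-1CT.

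The log2 ratio of TKT was 1.49 for HCT116, 1.17 for DLD-1 and 0.65 for SW620. TALDO1 was called in DLD-1 alone, at 1.04, a call lost under median-ratio rescaling as was that of TKT in DLD-1. TKT over TALDO1 was 3.72 in HCT116, 1.02 in DLD-1, 1.34 in SW620 and 0.93 in HCEC-1CT. In DLD-1 47.0% of TKT was TKT-207, which has no coding label and was singled out after its value was seen. Summed over protein-coding transcripts, the TKT log2 ratio was 1.85 for HCT116, 0.05 for DLD-1 and 1.11 for SW620.

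Of 4 further pentose phosphate genes, 1 was called higher for HCT116, 1 for DLD-1 and 0 for SW620, and 1 lower in each. Of all measured genes 26.9%, 25.9% and 24.8% were called higher in that order of lines, and 13.1%, 12.9% and 14.2% lower.

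PGM1, which joins glucose-6-phosphate to glycogen and sugar nucleotides, had 24.5 FPKM in HCT116, 37.1 FPKM in DLD-1 and 21.9 FPKM in SW620, against 27.5 FPKM in HCEC-1CT. It was within 2-fold in each comparison, and ITGB3BP overlaps it on the other strand. PGM2, a relative that acts on pentose phosphates, had 12.5 FPKM in HCT116, 18.3 FPKM in DLD-1 and 10.4 FPKM in SW620, against 1.15 FPKM in HCEC-1CT. The start of PGM1 set SW620 apart, as seen in the values after which it was chosen. PGM1-205 made up 0.42% in HCT116, 0.356% in DLD-1, 39.3% in SW620 and 0.246% in HCEC-1CT. The remainder was almost all PGM1-202, and the windows of both starts lie within 1 kb on chromosome 1 (plus strand, chr1:63593559-63593858 and chr1:63593161-63593460). The RefSeq start of the second window lies 135 bases from that of PGM1-202.
PGM1-205 start: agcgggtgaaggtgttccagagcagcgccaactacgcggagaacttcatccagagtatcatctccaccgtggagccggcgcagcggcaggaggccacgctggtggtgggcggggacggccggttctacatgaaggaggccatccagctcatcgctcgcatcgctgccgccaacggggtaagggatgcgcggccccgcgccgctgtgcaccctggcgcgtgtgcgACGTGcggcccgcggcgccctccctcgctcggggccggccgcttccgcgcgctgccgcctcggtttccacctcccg
PGM1-202 start: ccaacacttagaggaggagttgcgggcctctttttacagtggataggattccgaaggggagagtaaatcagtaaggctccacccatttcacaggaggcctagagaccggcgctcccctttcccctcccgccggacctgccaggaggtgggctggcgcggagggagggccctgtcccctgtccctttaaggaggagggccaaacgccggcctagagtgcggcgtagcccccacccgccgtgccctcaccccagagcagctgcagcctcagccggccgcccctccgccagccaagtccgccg

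**Figure D4:**
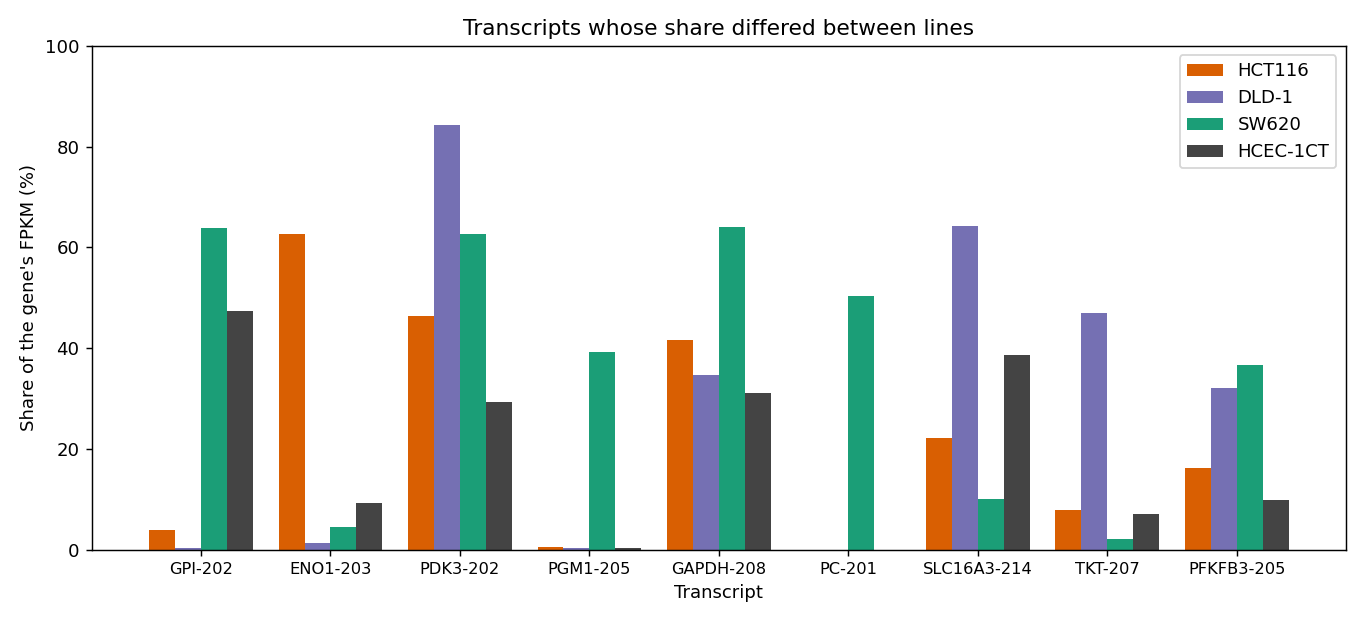
Share of the gene's FPKM (percent) held by the named transcripts of ENO1, GPI, PDK3, GAPDH, PC, SLC16A3, TKT, PGM1 and PFKFB3 in the HCT116, DLD-1, SW620 and HCEC-1CT libraries, as bars that start at 0. ENO1-203 is high in HCT116 (62.8%), TKT-207 in DLD-1 (47.0%), and PC-201 (50.4%) and PGM1-205 (39.3%) in SW620.

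The most abundant transcript differed from that of HCEC-1CT in 4 of the 30 genes for HCT116, 4 for DLD-1 and 8 for SW620. Protein-coding transcripts held a median of 87.9% of a gene's FPKM in HCT116, 90.8% in DLD-1, 91.9% in SW620 and 87.0% in HCEC-1CT. They held under 50% of 5 genes in HCT116, 4 in DLD-1, 3 in SW620 and 2 in HCEC-1CT. LDHA and PC were among these in HCT116, DLD-1 and HCEC-1CT, and PFKL in each cancer line. Neither count was made over all genes, so neither can be read as a trait of these 30. Transcript shares are estimates that depend on the program and annotation used, and no second library of a line shows how far they would vary.

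Between the cancer lines, HCT116 had more of the 30 genes called lower than higher. Over DLD-1, HCT116 had 1 gene called higher and 7 lower, against 16.4% and 18.1% of measured genes. Over SW620, HCT116 had 0 called higher and 7 lower, against 14.2% and 12.2%. DLD-1 over SW620 had 3 called higher and 4 lower, against 18.6% and 14.3%. The genes that set DLD-1 2-fold above each of the other 3 libraries were PFKL, SLC16A1 and PDK1. For PDK1 the log2 ratio of DLD-1 over SW620 was 1.01 and so at the limit. For PFKL that of DLD-1 over HCEC-1CT was 0.83 when protein-coding transcripts alone were summed. HCT116 was the highest library for 5 genes, DLD-1 for 12 and SW620 for 11, against 2 for HCEC-1CT. Over all measured genes the highest library was HCT116 for 26.8%, DLD-1 for 32.9% and SW620 for 21.5%, against 18.9% for HCEC-1CT.

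Genes around the pathway were counted in the same way. Of 11 measured further isozymes of the steps, 5 were called higher and 2 lower in HCT116, 4 and 4 in DLD-1, and 4 and 2 in SW620. Of 12 measured genes of a wider glycolysis and gluconeogenesis list, 3 were called higher and 0 lower in HCT116, 4 and 1 in DLD-1, and 4 and 0 in SW620. Of 6 glycogen genes, 1 was higher and 2 lower in HCT116, 2 and 2 in DLD-1, and 1 and 1 in SW620. Of 8 regulators of glucose use, 3 were higher and 3 lower in HCT116, 4 and 2 in DLD-1, and 4 and 1 in SW620. The background shares for these counts are the ones given for the 30 genes, and the lists are too short to be read against them gene by gene. MLXIPL, the glucose-sensing factor ChREBP, had 19.3 FPKM in HCT116, 5.84 FPKM in DLD-1 and 7.41 FPKM in SW620, against a value listed as 0 in HCEC-1CT.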

How the data were processed

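The values are FPKM deposited by the authors for 58740 genes and 207345 transcripts of 4 libraries, 1 per cell line. The build was hg38, with FastQC and HISAT2 as tools, per the submitters' processing notes. The sources used here do not say how FPKM was computed, with which annotation and filters, or whether RNA was selected or strand kept. A single column in each of the 2 tables matches no sample (1 per table) and was not used. Of the gene IDs, 58275 matched GENCODE 29, which gave gene types and overlaps. Transcript values summed to the gene value within 0.0022 FPKM.

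The 30 genes and all lists were chosen with earlier results of these data known. Log2 ratios used a pseudocount of 1 FPKM, which understates changes of low genes, and genes with at least 1 FPKM in any library counted as measured. A call is a 2-fold difference. With 1 library per line no test or p-value was computed, and all 3 comparisons share HCEC-1CT. All 30 genes are described. The wider lists are given as counts, and 1 gene was left out of them and is not reported here. A gene of another list is named at 4-fold in 1 direction in each cancer line with at least 10 FPKM in its highest library, or as a further isozyme reaching 10 FPKM. Transcripts are named for at most 6 genes whose main transcript differs, by the largest loss of share, and other names are said to be chosen after their values were seen. Depth was read from low FPKM values of genes with 1 transcript, which peak at whole multiples of a step. At these depths 117 of the 120 gene values stand on at least 400 fragments (median 4374), so counting error is small and the lack of a second library limits the comparisons. Promoter windows are RefSeq sequences of GRCh38.p14, from 250 bases before to 50 after a start. Scaling, pseudocount, filter, fold limit, pseudogene rows and further isozymes were varied. The ratio and the 2-fold call were checked on HCEC-1CT values with planted 4-fold changes, a check that does not cover the other steps. The work ran in Python 3.11.15 with pandas 2.3.3, NumPy 2.4.6 and Matplotlib 3.10.9.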

Additional observations from a re-analysis of the deposited data

Results flagged for a closer look

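SLC2A3, the gene of the glucose carrier GLUT3, lay on both sides of the shared HCEC-1CT library in the cancer lines. Its log2 ratio over HCEC-1CT was -1.43 for HCT116, -4.91 for DLD-1 and 1.67 for SW620. The difference between these lines was not tested, since each line has 1 library.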

How the results depend on the processing

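No paired analysis was possible because each line has 1 library and no replicate. As deposited, 7 of the 30 genes were 2-fold higher and 2 lower in HCT116, 13 and 2 in DLD-1, and 13 and 1 in SW620, against HCEC-1CT. Under median-ratio scaling 4 were lower in HCT116, 8 higher in DLD-1, and 6 higher and 2 lower in SW620. The median log2 ratio was then -0.37 for HCT116, 0.27 for DLD-1 and 0.42 for SW620. Over all measured genes these medians were 0.03, 0.05 and 0.03 in that order of lines. HCEC-1CT was then the highest library for 4 genes instead of 2, a count not made over all genes. On the TPM scale 5 were lower in HCT116 with a median of -0.44, beside 0.0 over all measured genes. In SW620 6 were then higher and 2 lower with a median of 0.44, beside 0.04. With the protein-coding total as scale, 8 were higher and 2 lower in SW620. Shares of all genes called were not computed on either of these scales. At a 4-fold limit 3 were higher and 1 lower in HCT116, 3 and 1 in DLD-1, and 3 and 1 in SW620. Pseudocounts of 0.1 and 5 changed the call of 1 and 3 of the 90 gene ratios, and a 10 FPKM minimum of none.

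With all isozymes counted, PDK1 held 29.2% of the kinases in HCEC-1CT and no longer led. The following were chosen after seeing the data. With protein-coding transcripts alone, 2 genes were lower in SW620, with no share of all genes computed. PFKL then held 25.2% in DLD-1, LDHA 40.1% in HCT116 and 42.3% in DLD-1, and PDK1 48.4% in SW620, so each lost its lead. The summed FPKM of the 30 genes in HCT116 over HCEC-1CT was 0.44 on the log2 scale as deposited. It was 0.05 under median-ratio scaling and 0.32 with the protein-coding total as scale. On the TPM scale, which here is the same measure as the share of all FPKM, it was -0.02. LDHA over LDHB in SW620 relative to HCEC-1CT was -0.02 on the log2 scale, and 0.64 over protein-coding transcripts. A changed main transcript that lost 20 or more points occurred in 2 genes for HCT116, 4 for DLD-1 and 5 for SW620. This was not counted over all genes. The limits are 1 library per line, an unknown FPKM program, unknown strand, and HCEC-1CT nearly without epithelial markers. The part of each in the differences was not tested.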

Other observations

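Of 10 genes known to respond to hypoxia outside glycolysis, 2 were 2-fold higher and 4 lower in HCT116 than in HCEC-1CT, against 26.9% and 13.1% of all measured genes. In DLD-1 it was 2 and 3, against 25.9% and 12.9%, and in SW620 4 and 2, against 24.8% and 14.2%. EGLN3, an oxygen-sensing prolyl hydroxylase, had 6.84 FPKM in HCT116, 91.2 FPKM in DLD-1 and 90.0 FPKM in SW620, against 0.789 FPKM in HCEC-1CT. BNIP3, a mitophagy receptor, had 17.1 FPKM in HCT116, 0.0512 FPKM in DLD-1 and 0.135 FPKM in SW620, against 75.8 FPKM in HCEC-1CT. These genes were thus apart from HCEC-1CT in opposite directions in all 3 cancer libraries.

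Among regulators of glucose use, 3 were singled out after their values were seen. TXNIP, a glucose-induced inhibitor of glucose uptake, is listed at 0 in HCT116, where a failed estimate cannot be told from a lack of RNA, and had 476 FPKM in DLD-1 and 904 FPKM in SW620, against 95.1 FPKM in HCEC-1CT. HIF1A, the hypoxia-inducible factor subunit, had 34.2 FPKM in HCT116, 41.5 FPKM in DLD-1 and 70.7 FPKM in SW620, against 119 FPKM in HCEC-1CT. MYC had 80.8 FPKM in HCT116, 17.5 FPKM in DLD-1 and 57.8 FPKM in SW620, against 8.26 FPKM in HCEC-1CT.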
